A study of Mus musculus with 3 samples.

Results

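The miR-34 family was examined in small RNA libraries from mouse hearts collected during the first postnatal month. Its members were taken by accession of the mature miRNA, as miR-34a-5p (MIMAT0000542), miR-34b-5p (MIMAT0000382) and miR-34c-5p (MIMAT0000381), by a rule that names accessions and sets no threshold on reads. Each of these 3 accessions had a single row among the 2049 rows of the count table. The hearts came from wild type C57BL/6 mice at postnatal day 1 (P1), 7 (P7) or 28 (P28), and each age had 1 library. The study's text names cardiac ventricles as the source, while the labels say heart, and neither states whether a library holds 1 animal or several. With 1 library per age, no difference between ages has a replicate check, and fewer cells of a type cannot be told apart from less miRNA per cell. The count table carries accessions without names, so no marker miRNA of heart muscle or of another cell type was checked.

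A miRNA guides the silencing machinery to mRNAs mainly through its seed, the stretch of bases near its 5′ end that pairs with sites in the target. The miR-34 family is best known as a direct transcriptional target of p53, and its members restrain the cell cycle and favour apoptosis and senescence through targets such as Bcl2, Ccnd1 and Sirt1. In the heart, miR-34a has been tied to ageing and to injury, and its level or inhibition has been tested in neonatal heart repair. The miR-34b and miR-34c hairpins share a primary transcript, and both miRNAs are abundant in testis, brain and epithelia with motile cilia.

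The mature sequences show what 2 of the members share. RefSeq (GRCm38.p6) held the mature sequences of miR-34a-5p and miR-34b-5p, 2 of the 3 members, and these are printed 5′ to 3′ with the seed (bases 2 to 8) in capitals. The pair of miR-449 miRNAs is shown because it carries the same seed.
miR-34a-5p: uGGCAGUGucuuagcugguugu
miR-34b-5p: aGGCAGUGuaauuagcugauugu
miR-449a-5p: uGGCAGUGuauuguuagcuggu
miR-449c-5p: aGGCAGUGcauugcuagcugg
Of 1738 mature miRNAs in the RefSeq table, these 4 had this seed, whose pairing site in an mRNA reads CACUGCC. Counted from the 5′ end, miR-34a-5p and miR-34b-5p differed at the first base (U1A), were identical from base 2 to base 9 and next differed at base 10. In a global alignment, 19 of 23 columns were identical between them. The RefSeq table held no mature sequence of miR-34c-5p, so its seed was not checked and its absence from the 4 shows nothing. The miR-449 miRNAs are named for their seed alone, and their reads were not analysed here.

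The hairpin of miR-34a and those of miR-34b and miR-34c lie on different chromosomes (GRCm38, which is mm10). The Mir34a hairpin spans chr4:150068454-150068555 on the plus strand and overlaps an exon of Gm37795, a transcript model of unproven status on the same strand. Mature miR-34a-5p takes chr4:150068473-150068494 of it. The Mir34b hairpin (chr9:51103562-51103645) and the Mir34c hairpin (chr9:51103034-51103110) both lie on the minus strand, 451 bases apart. Both sit within the span of the protein-coding gene Btg4, which runs on the plus strand (chr9:51060901-51119875), and neither overlaps one of its exons.

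MiR-34c-5p, the most abundant member, was higher at P28 than at both younger ages. Its reads numbered 82 in the P1 library, 81 in the P7 library and 566 in the P28 library. In CPM, a scale on which a library sums to 1000000, its P1 level was 42.2 (95% Wilson interval 33.98 to 52.3) and its P7 level 32.9 (26.4 to 40.8). Its P28 level was 199 CPM (183 to 216). The P28 library stood alone at the top, while the intervals of P1 and P7 overlapped. By abundance it ranked 223rd of 729 rows with reads at P1, 236th of 787 at P7 and 114th of 669 at P28.

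MiR-34a-5p differed little between ages on the scale of library totals, though P28 differed more from P1 on other scales (given with its ratios). It had 28 reads in the P1, 49 in the P7 and 52 in the P28 library. This gave 14.4 CPM for P1 (9.96 to 20.8), 19.9 CPM for P7 (15.0 to 26.3) and 18.3 CPM for P28 (14.0 to 24.0). All 3 intervals overlapped, so no order of the ages can be read from these levels. Its rank was 296th at P1, 270th at P7 and 237th at P28.

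MiR-34b-5p, the cluster partner of miR-34c, was barely sampled. It had 2 reads in the P1, 1 in the P7 and 7 in the P28 library. Only the P28 value, 2.46 CPM (1.19 to 5.08), lay above the level of 3 reads, which was 1.06 CPM in that library. The values at P1 (1.03 CPM, 0.282 to 3.75) and P7 (0.406 CPM, 0.0716 to 2.30) fell below the corresponding levels of 1.54 and 1.22 CPM. Library totals were 1944237 reads (P1), 2465680 reads (P7) and 2842526 reads (P28). The intervals and these levels cover counting error only, as reads copied from one molecule were not told apart.

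**Figure D1:**
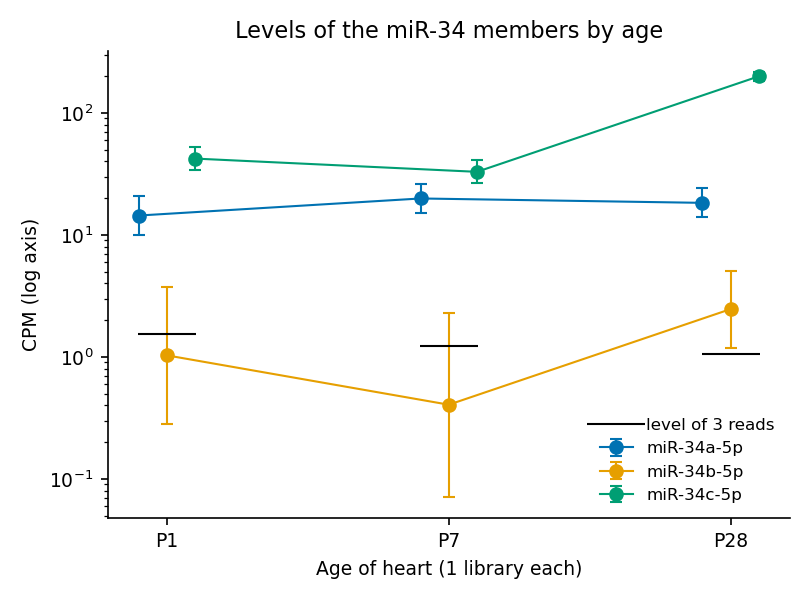
Level of each member in CPM (log axis) in the libraries of P1, P7 and P28 hearts; points are single libraries, bars are 95% Wilson intervals for counting error, and black dashes mark the level of 3 reads. MiR-34c-5p rises from 32.9 CPM at P7 to 199 CPM at P28, miR-34a-5p lies between 14.4 and 19.9 CPM, and miR-34b-5p is below the dash at P1 and P7.

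The first comparison asked whether the family moved between P1 and P7, the week in which the neonatal mouse heart loses most of its capacity to regenerate. Neither miR-34a-5p nor miR-34c-5p was called. The level of miR-34a-5p at P7 was 1.38 times that at P1 (95% Clopper-Pearson interval 0.850 to 2.28), and that of miR-34c-5p was 0.779 times (0.566 to 1.07). Their adjusted p-values in the two-sided exact binomial test were 0.251 and 0.150. This test sets the reads of an entry (a row of the table) against the library totals, so that it compares 2 libraries and not 2 ages. An entry was called when its Benjamini-Hochberg adjusted p over the 317 entries averaging 10 CPM or more was under 0.05 and its log2 ratio, with 0.5 reads added to each count, was at least 1 in size. By that rule 10.4% of the tested entries were higher at P7 and 11.7% were lower. At these depths a 2-fold rise of miR-34a-5p lay within its interval, and a 2-fold fall of either miRNA lay outside.

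Between P1 and P28, miR-34c-5p was higher at P28 by 4.72-fold (3.74 to 6.03). Its log2 ratio was 2.23 (1.90 to 2.59), the 7th highest of the 317 entries, with an adjusted p of 1.34e-54 by the exact binomial test. The other tested member was not called. In this comparison 12.3% of the tested entries were higher and 40.7% were lower. The level of miR-34a-5p was 1.27 times that at P1 (0.788 to 2.09), with an adjusted p of 0.383 in the same exact test. That interval ended below the one of miR-34c-5p. The value for miR-34a-5p depended on the scaling. Its log2 ratio of P28 to P1 was 0.33 by library totals, 0.96 under TMM and DESeq2 size factors, and 0.82 with the total without the 10 most abundant entries. In the exact binomial test under these 3 scalings, the adjusted p-values were 0.00457, 0.00453 and 0.0169, past 0.05, while the ratio stayed under the 2-fold threshold, so that no call was made.

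The rise of miR-34c-5p fell between P7 and P28. The fold was 6.06 (4.80 to 7.75) and the log2 ratio 2.59 (2.26 to 2.95), the third highest of all tested entries, with an adjusted p of 1.42e-75 in the exact binomial test. Here 3.15% of the entries were higher and 39.1% were lower, and miR-34c-5p was 1 of 10 entries called higher. These counts rest on library totals: TMM gave 40 higher and 70 lower, and DESeq2 size factors gave 46 and 63. By library totals, a course with no call between P1 and P7 and a higher level at P28 than at both younger ages was found for 7 entries, miR-34c-5p included. MiR-34a-5p was at 0.921 times its P7 level (0.611 to 1.39), with an adjusted p of 0.728 in the exact test.

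Both called ratios depend on how much hearts of one age vary, which 1 library per age cannot show. When hearts of one age were assumed to vary with a coefficient of 0.2, miR-34c-5p kept both calls by the edgeR exact test. At 0.4 it lost them, at Benjamini-Hochberg adjusted p-values of 0.0642 for P28 against P1 and 0.0711 for P28 against P7 in that exact test.

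MiR-34b-5p was under the filter of 10 CPM and was not called in any comparison. The ratio of P28 to P1 was 2.39 (0.456 to 23.6), that of P28 to P7 was 6.07 (0.780 to 274) and that of P7 to P1 was 0.394 (0.00668 to 7.57). Each of these intervals holds 1, as well as the fold of miR-34c-5p in the same comparison. Whether the cluster partners moved together was thus not detectable at this depth. Both members that passed the filter were above 10 CPM in every library, so that neither passed only through the age at which it was high.

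**Figure D2:**
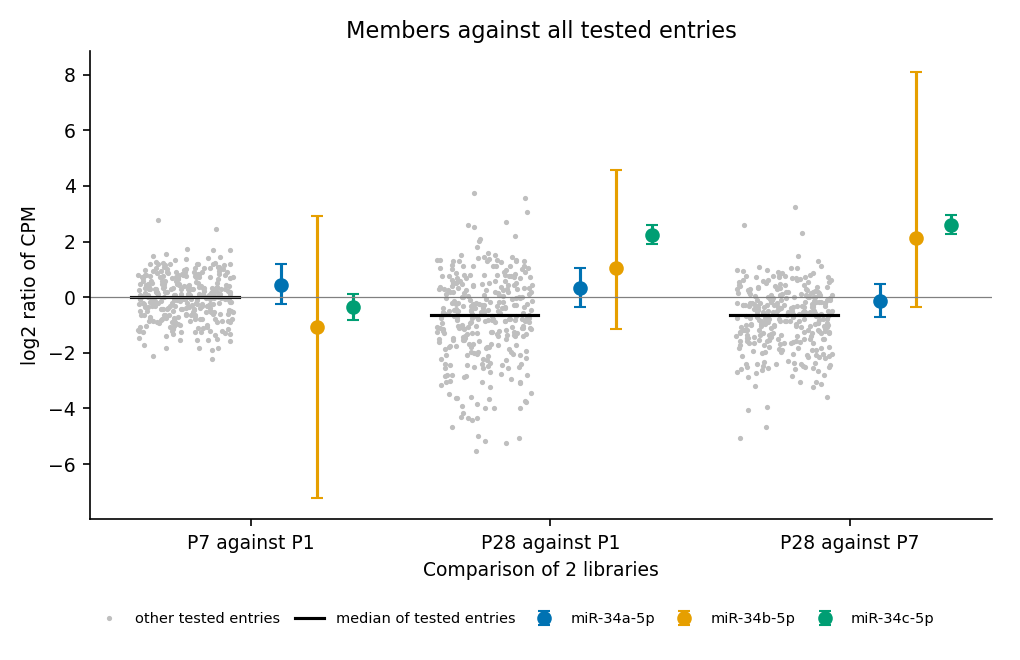
Log2 ratio of CPM for each member (coloured points, with 95% Clopper-Pearson intervals for counting error) beside the other tested entries (grey points) and the median of all 317 tested entries (black lines), for each pair of libraries. MiR-34c-5p lies near the top of both comparisons with P28 at 2.23 and 2.59, while the medians are at -0.64.

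The scale of each library matters for the comparisons with P28, because the typical entry was lower there. The median log2 ratio over all tested entries was 0.02 for P7 against P1 and -0.64 for both comparisons with P28. Relative to that median entry, miR-34c-5p was higher by 2.87 on the log2 scale at P28 than at P1, and by 3.23 than at P7. MiR-34a-5p was above the median entry by 0.97 and 0.52 in the same comparisons. TMM scaling, which places the typical entry near no change, gave miR-34a-5p a log2 ratio of 0.44 for P28 against P7, where library totals gave -0.12. The direction of that small difference therefore flipped with the scaling.

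**Figure D3:**
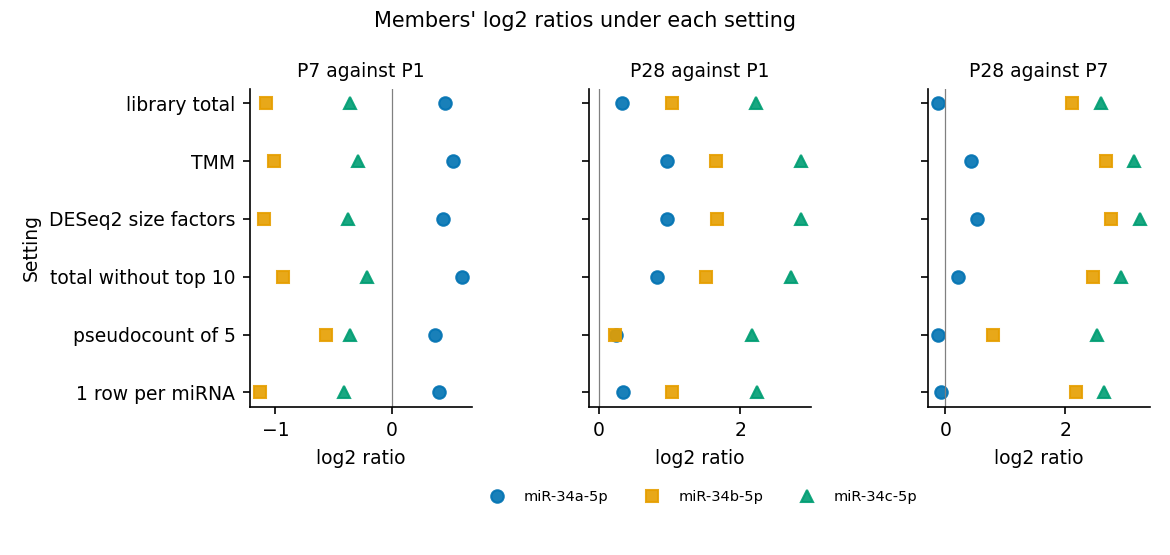
Log2 ratios of the members under 6 ways of computing them (rows), in each comparison of 2 libraries; colours and symbols mark the members. MiR-34c-5p stays between 2.17 and 2.86 for P28 against P1 and between 2.53 and 3.24 for P28 against P7, whereas miR-34a-5p changes sign for P28 against P7.

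The balance within the family needs no scaling, since it is taken inside a library. MiR-34c-5p supplied 73.2% of the 112 family reads in the P1 library (95% Clopper-Pearson interval 64.0 to 81.1). It supplied 61.8% of 131 in the P7 library (52.9 to 70.2) and 90.6% of 625 in the P28 library (88.0 to 92.7). The share of miR-34a-5p was 25.0% in the P1 (17.3 to 34.1), 37.4% in the P7 (29.1 to 46.3) and 8.32% in the P28 library (6.28 to 10.8). The P28 library stood apart from both younger ones, whose intervals overlapped. MiR-34b-5p never exceeded 1.79%, its share at P1 (0.217 to 6.30).

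Per read of miR-34a-5p there were 2.93 reads of miR-34c-5p in the P1 (1.89 to 4.67), 1.65 in the P7 (1.15 to 2.41) and 10.9 in the P28 library (8.18 to 14.8). The fold of miR-34c-5p exceeded that of miR-34a-5p by 3.71 times between P1 and P28 (exact conditional 95% interval 2.13 to 6.37) and by 6.56 times between P7 and P28 (4.06 to 10.6). Between P1 and P7 this quotient was 0.566 (0.310 to 1.02), an interval that holds 1. Per read of miR-34b-5p there were 41 reads of miR-34c-5p in the P1 (11.0 to 344), 81 in the P7 (14.1 to 3238) and 80.9 in the P28 library (39.0 to 202). The lower bounds show that miR-34c-5p reads outnumbered those of its cluster partner in every library. Read numbers of different miRNAs also carry the efficiency with which each is ligated and copied, so these quotients describe reads and not molecules.

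**Figure D4:**
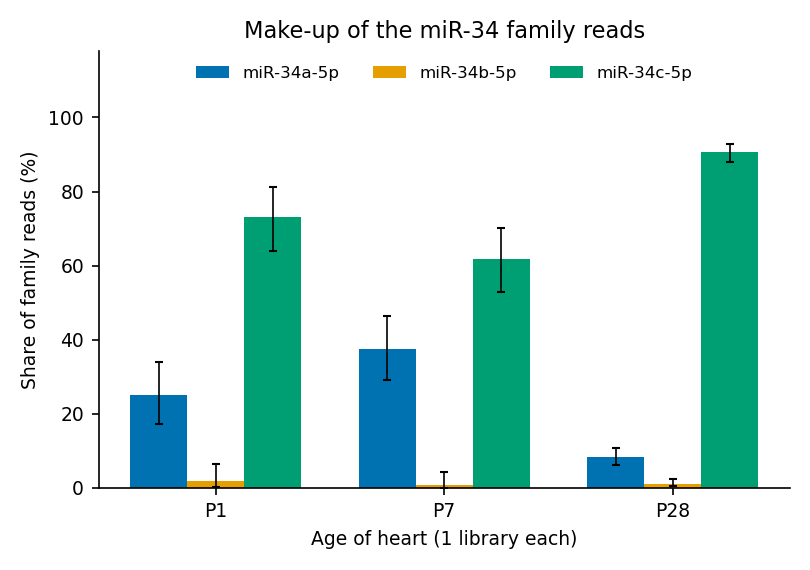
Share of the miR-34 family reads (percent) held by each member in the libraries of P1, P7 and P28 hearts; bars are single libraries and error bars are 95% Clopper-Pearson intervals for counting error. The miR-34c-5p share is 90.6% at P28 against 73.2% at P1 and 61.8% at P7.

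The family as a sum followed miR-34c-5p. It amounted to 57.6 CPM for P1 (47.9 to 69.3), 53.1 CPM for P7 (44.8 to 63.0) and 220 CPM for P28 (203 to 238). The sum at P28 was 3.82 times that at P1 (3.12 to 4.71), and at P7 it was 0.922 times (0.711 to 1.20). The other two members together never exceeded 59 reads in a library.

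The entries most like each member were sought by their distance from it in a pair of log2 ratios, P7 against P1 and then P28 against P7, over 3 libraries, in the table reduced to 1 row per mature miRNA. For miR-34c-5p, whose ratios there were -0.41 and 2.65, the nearest of 282 other entries was MIMAT0000233, at a distance of 0.30. It had 64 reads in the P1, 78 in the P7 and 547 in the P28 library. The next was MIMAT0000519 at 0.70, with 20, 31 and 179 reads in the same order. Both rose mainly after P7, as miR-34c-5p did, and the next 3 entries lay at 1.07 to 1.61, against a median distance of 3.54. No marker of another cell type was matched to a row. Whether the entries nearest to miR-34c-5p mark epithelial, multiciliated or other cells was therefore not checked. The part of other cell types in the P28 level of miR-34c-5p was not tested. The 5 entries nearest to miR-34a-5p lay at 0.12 to 0.20, against a median of 1.18. In the unreduced table, the interval of its own ratio of P7 to P1 (log2 -0.23 to 1.19) is wider than these distances. The same interval for miR-34c-5p, also from the unreduced table (log2 -0.82 to 0.10), is wider than the distances of 0.30 and 0.70 to its nearest entries. These likenesses rest on 3 shared libraries and carry no test.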

How the data were processed

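Raw read counts per miRBase entry were deposited by the authors as 1 table with a column for each library, and columns were matched to ages by the age code in their names. Per the labels, the libraries were made with a NEBNext small RNA kit, and the processing notes name bcl2fastq, TopHat and mm10. The miRBase release, the use of strand and the treatment of reads that fit several places are not given in the sources used here. No row elsewhere in the table had counts within 5% of a member's in every library, in a search over all rows.

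CPM was taken on column totals. Log2 ratios used a pseudocount of 0.5 reads. With 1 library per age no spread could be fitted, so reads were compared by exact binomial tests with Benjamini-Hochberg adjustment over the 317 entries of at least 10 CPM on average, and p-values cover counting error only. The call rule was tested on simulated data that held counting error only, so this check cannot cover variation between hearts of one age. The alternatives were 11 planned settings (scaling, pseudocount, assumed variation, filter, fold and 1 row per mature miRNA) and 1 added after the data were seen (variation over the 3 libraries as one group). For 1 row per mature miRNA, the 14 stem-loop rows and near-identical rows (within 1%, at least 300 reads) were left out and the rows of an accession summed.

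The members and lists were chosen with earlier results of these data known. Lists planned by name (sister arms, p53-responsive miRNAs, heart repair miRNAs, cell type markers) were not used here, as accessions were not paired with names. The named entries are the members and, as accessions without names, the nearest 2 of the 5 entries most like miR-34c-5p. Tools were R 4.3.3, edgeR 4.0.16, DESeq2 1.42.0, Python 3.11.15, pandas 2.3.3, numpy 2.4.6, scipy 1.17.1, Biopython 1.88 and matplotlib 3.10.9.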

Additional observations from a re-analysis of the deposited data

How the results depend on the processing

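With 1 library per age, depth limits miR-34a-5p and above all miR-34b-5p, and no paired analysis was possible because no age has a second library. Of 108 pairs of a member's log2 ratio and another setting, all but 7 kept their direction and whether the member was called. Tests, filters and fold thresholds cannot move a log2 ratio, so that the lack of change there shows nothing. Without a change of call, miR-34a-5p at P28 against P1 went from 0.33 to 0.96 under TMM and DESeq2 size factors, with adjusted p-values of 0.00457 and 0.00453 in the exact binomial test, and miR-34b-5p, which was under the filter, went from 1.04 to 0.23, from 2.12 to 0.79 and from -1.08 to -0.57 with a pseudocount of 5 reads. MiR-34c-5p was called in 11 of 13 settings in both comparisons with P28. The exceptions were edgeR exact tests: its log2 ratios of 2.23 (P28 against P1) and 2.59 (P28 against P7) were not called at an assumed coefficient of variation of 0.4 or with the 3 libraries taken as one group (0.582, adjusted p-values 0.456 and 0.716 in that exact test). MiR-34a-5p was called in 0 of 13. MiR-34b-5p was tested only with the filter at 1 CPM and with no filter, and was called in neither. In the other settings it was not tested, so no call of it was possible there. The direction of miR-34a-5p at P28 against P7 reversed from -0.12 to 0.44 under TMM, 0.53 under DESeq2 size factors and 0.22 with the total without the 10 most abundant entries, each of which raises every P28 ratio by one amount.

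The numbers of all entries called, given as higher and lower, moved by over 1.5 times as follows. Under TMM there were 76 and 83 for P28 against P1, then 40 and 70 for P28 against P7, DESeq2 size factors 76 and 83, then 46 and 63, and the total without 10 entries 65 and 27 higher. Among entries called in either direction at P28 against P1, the share called higher thus went from 23.2% by library totals to 47.8% under TMM. A variation of 0.2 gave 17 and 22 at P7 against P1. At 0.4 the numbers were 0 and 0 (2 and 6 unadjusted), then 6 and 49 for P28 against P1, with 1 and 7 for P28 against P7. As one group they were 0 and 0 in all 3 comparisons, with unadjusted numbers of 1 and 0, 4 and 38, and 3 and 14. The filter at 1 CPM gave 61 and 26 higher in the comparisons with P28, and no filter 26 at P28 against P7. With 1.5-fold as the threshold, 71 and 75 were called for P7 against P1, and 32 were higher for P28 against P7. A 4-fold threshold gave 2 and 2, 10 and 65, and 4 and 45.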
